A study of Mus musculus with 4 samples.

Results

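Layer 2/3 intratelencephalic excitatory nuclei were taken from single-nucleus RNA sequencing of the mouse cerebral cortex, and gene expression in them was compared between CrT-KO and control animals. A nucleus was a member if it held at least 1 unique molecular identifier (UMI, a counted RNA molecule) of Slc17a7, none of Gad1 or Gad2, at least 2 of Cux2, at least 2 over Ccbe1, Stard8 and Rasgrf2 together, at most 2 of Rorb, at most 2 of Foxp2 and none of Deptor. The rule found 1637 of 35694 nuclei. After 46 members marked as doublets (2.81%) were left out, 1591 remained, with 381 and 423 in the control libraries and 453 and 334 in the CrT-KO libraries. They belonged to 10567 excitatory nuclei, defined by Slc17a7 without Gad1 or Gad2.

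CrT-KO animals were CrT-/y males, which carry on their only X chromosome a whole-body deletion of exons 5 to 7 of Slc6a8, the gene of the creatine transporter (CrT). Controls were CrT+/y littermates. All were C57Bl/6J mice at postnatal day 100, untreated, and each of the 2 libraries per genotype was made from the right cerebral cortex of 1 animal, with no pooling. The question was how the transcriptome of this neuron type differs between the genotypes when creatine uptake is lost in the whole animal, so neurons and glia lack the transporter alike.

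Layer 2/3 intratelencephalic neurons are glutamatergic cells of the upper cortex that send axons within the same hemisphere and, through the corpus callosum, to the other one. They take input from layer 4 and from other cortical areas and drive layer 5, and are marked by the homeodomain factors Cux1 and Cux2. Creatine and its phosphorylated form buffer ATP through the creatine kinases, and neurons with high firing and long axons draw on this buffer.

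The 4 libraries held 51507483 to 65240843 UMIs, and the member nuclei summed to 3883043 and 4351364 UMIs in the controls and 5060611 and 3263056 in CrT-KO. CrT-KO replicate 1 was thus the deepest library and CrT-KO replicate 2 the shallowest for these nuclei. Between libraries, 96 barcodes were shared, none of them by members of both. Scrublet marked 2.91% and 4.17% of control nuclei and 3.32% and 3.38% of CrT-KO nuclei as doublets, and these were left out. Levels are given as CPM, the summed UMIs of a population in a library brought to the same total. They were scaled by TMM factors wherever genotypes were compared by gene, and left unscaled for ratios between populations within a library and for sums over marker lists.

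The label was checked against genes the rule had not used. Nectin3, an adhesion protein given as a marker of these cells, stood at 143 and 105 CPM in the controls and 85.6 and 94.1 CPM in CrT-KO, which was 2.79 to 3.26 times its level in the other excitatory nuclei of the same library. Cux1 stood at 521 to 550 CPM, 2.19 to 2.46 times the other excitatory nuclei. Otof and Calb1, a calcium sensor of vesicle release and a calcium buffer, were at 3.06 to 4.74 and at 2.86 to 3.31 times that level. A list of deep-layer genes summed to 979 to 1078 CPM, against 3676 to 3884 CPM in the other excitatory nuclei. Hs3st4 was at 0.0638 to 0.110, Il1rapl2 at 0.115 to 0.131 and Bcl11b at 0.286 to 0.339 of the other excitatory nuclei, and Cplx3 had no UMI in any library. The exceptions in the list were Trps1, at 348 to 396 CPM against 233 to 259 CPM, and Ndst4, at 53.6 to 86.0 CPM against 53.5 to 78.3 CPM. In the clustering described further on, Ndst4 led cluster 24, which held 8.55% of the members. Not every gene of the list is thus particular to deep layers. Because members were chosen by expression, these ratios describe the selection and were not tested.

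Among the 4729 genes with at least 20 CPM in every library, 42 other than the rule's genes were over 2 times, and 56 under 0.5 times, their level in the other excitatory nuclei in every library. Ordered by the lowest ratio over the 4 libraries, Evc2, a membrane protein of the primary cilium, came first at 3.91 to 4.81, and Igfn1 next at 3.16 to 3.46, before Otof and Calb1. Col19a1, a collagen, had ratios of 2.78 to 3.61, Enpp2, the secreted enzyme that makes lysophosphatidic acid, 2.76 to 3.22, and Trpc6, a cation channel, 2.65 to 3.45. Of the first 15 genes in this order, Trpc6 passed the genotype test described further on and the other 14 did not.

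Most members formed 1 group when all nuclei were clustered without applying the rule, although the rule's genes were not left out of the clustering. Of the members, 78.8% lay in cluster 16, led by Ccbe1, Stard8, Evc2, Rgs6 and Nectin3, and they made up 1254 of its 3119 nuclei (40.2%). A further 8.55% lay in cluster 24, led by Ndst4 and Tafa2, and 3.02% in cluster 34, led by Col11a1 and Ntng2. The share in cluster 16 was 77.4% and 79.4% of members in the controls and 78.1% and 80.5% in CrT-KO. Cluster 16 was led in part by Ccbe1, Stard8, Rasgrf2 and Cux2, which chose the members, so these shares describe the selection and were not tested.

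**Figure D1:**
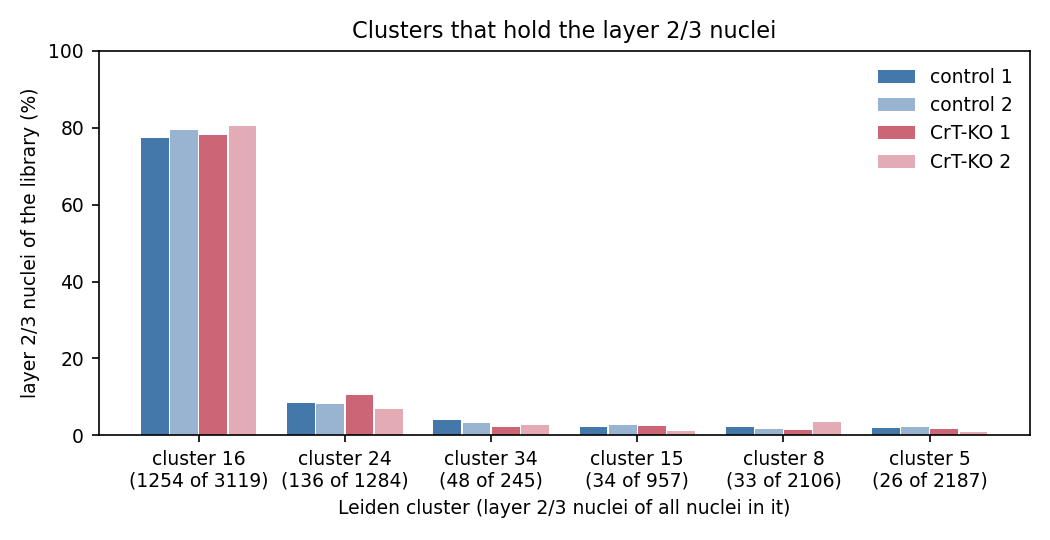
Share of each library's layer 2/3 nuclei (y axis, percent) in the 6 clusters with most members (x axis, with members and all nuclei of the cluster in brackets), bars coloured by library. Cluster 16 held 77.4% to 80.5% of the members of every library.

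The rule cut through a continuum of counts. Of the members, 360 had exactly 2 UMIs of Cux2, while 341 nuclei failed only by having 1, and 857 nuclei failed only because no UMI of Slc17a7 was caught. At the Rorb limit, 98 members had 2 UMIs and 61 nuclei failed only with 3. Within members the mean of Cux2 was 4.41 and 4.87 UMIs per nucleus in the controls and 4.79 and 4.05 in CrT-KO, and the mean of Rasgrf2, a calcium-activated exchange factor for Ras, was 5.19, 4.62, 5.38 and 4.60. These genes chose the members and are given as a description.

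Layer 2/3 nuclei made up 15.8% and 15.7% of excitatory nuclei in the controls and 16.0% and 12.8% in CrT-KO. The groups overlapped, with CrT-KO replicate 2 alone below the rest (exact permutation test, two-sided p = 1.0, where the smallest p for 4 libraries is 0.33). When each nucleus was thinned to 5000 UMIs before the rule was applied, which left out 14247 shallower nuclei, the shares were 11.2% and 11.1% in the controls and 10.1% and 8.24% in CrT-KO, without overlap (exact permutation p = 0.33). Members held a median of 9650 and 9912 UMIs per nucleus in the controls and 10649 and 9275.5 in CrT-KO, again overlapping (exact permutation p = 1.0).

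Slc6a8 (ENSMUSG00000019558, chromosome X, 73673150 to 73682502 of GRCm38) had 27 and 25 UMIs in the layer 2/3 nuclei of the controls and 9 and 3 in CrT-KO. Both CrT-KO libraries lay below both controls. At least 1 UMI was found in 6.56% and 5.91% of control members and in 1.99% and 0.898% of CrT-KO members, against 0% to 0.526% in the cluster with the highest share of the microglial gene Csf1r, whose nuclei were shallower (879.5 to 1033 UMIs in the median). The control mean of 6.26 ± 0.759 CPM compared with a CrT-KO mean of 1.36 ± 0.602 CPM (SD, n = 2 each), and expression fell by 2.08 on the log2 scale (SE 0.43; edgeR quasi-likelihood test, adjusted p = 0.0369). The fall in the other excitatory nuclei was 1.95 on the log2 scale, and the difference between the populations was -0.13 (SE 0.50, edgeR adjusted p = 0.997). The fall in layer 2/3 nuclei ranged from -1.79 without CrT-KO replicate 2 to -2.69 without CrT-KO replicate 1. The edgeR call was lost without control replicate 1 (adjusted p = 0.136), CrT-KO replicate 1 (0.149) or CrT-KO replicate 2 (0.313), and with members held to at least 3 UMIs of Cux2 (0.138). The matrices do not say where in the gene a UMI lay, so UMIs from outside the deleted exons were counted in both genotypes.

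The other genes of the creatine pathway were not called. Of 7 such genes 5 were tested, 1 fell and none rose, with a median log2 fold change of -0.22, against -0.01 over all 10380 tested genes. Ckb, the cytosolic brain creatine kinase, stood at 29.7 and 22.9 CPM in the controls and 23.9 and 17.2 in CrT-KO, and the groups overlapped (log2 fold change -0.32, SE 0.20, edgeR adjusted p = 0.774). Gatm, which makes the creatine precursor guanidinoacetate, was at 5.53 and 5.72 CPM against 5.37 and 4.70 (-0.14, SE 0.32, edgeR adjusted p = 0.962). The mitochondrial kinases Ckmt1 and Ckmt2 had log2 fold changes of -0.18 and -0.22 (edgeR adjusted p = 0.918 and 0.915).

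Between genotypes, 60 of 10380 genes passed an edgeR adjusted p of 0.1 in layer 2/3 nuclei (0.578%), 34 higher (0.328%) and 26 lower (0.250%) in CrT-KO. In all 60 the CrT-KO libraries lay on 1 side of the controls, which was so for 36.5% of all tested genes. At an unadjusted p under 0.05, 809 genes passed (7.79%). Many rises were small: 9 exceeded 2-fold and 15 were under 0.5 on the log2 scale, with medians of 0.61 over the called rises and -0.78 over the called falls. Of the 60 calls, 14 were made under every alternative that gave an adjusted p, each library left out in turn included, and these were Abi3bp, Skap1, Flt3, Zmat4, Fgf13, Astn2 and Hs6st3 among the rises and Luzp2, Pcsk5, Prkd1, Col25a1, Pcdh15, Dgkb and a record of Arhgap26 among the falls (named here after their values were seen). The number of calls was 30 without CrT-KO replicate 1, 39 without CrT-KO replicate 2, 85 without control replicate 1 and 106 without control replicate 2.

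**Figure D2:**
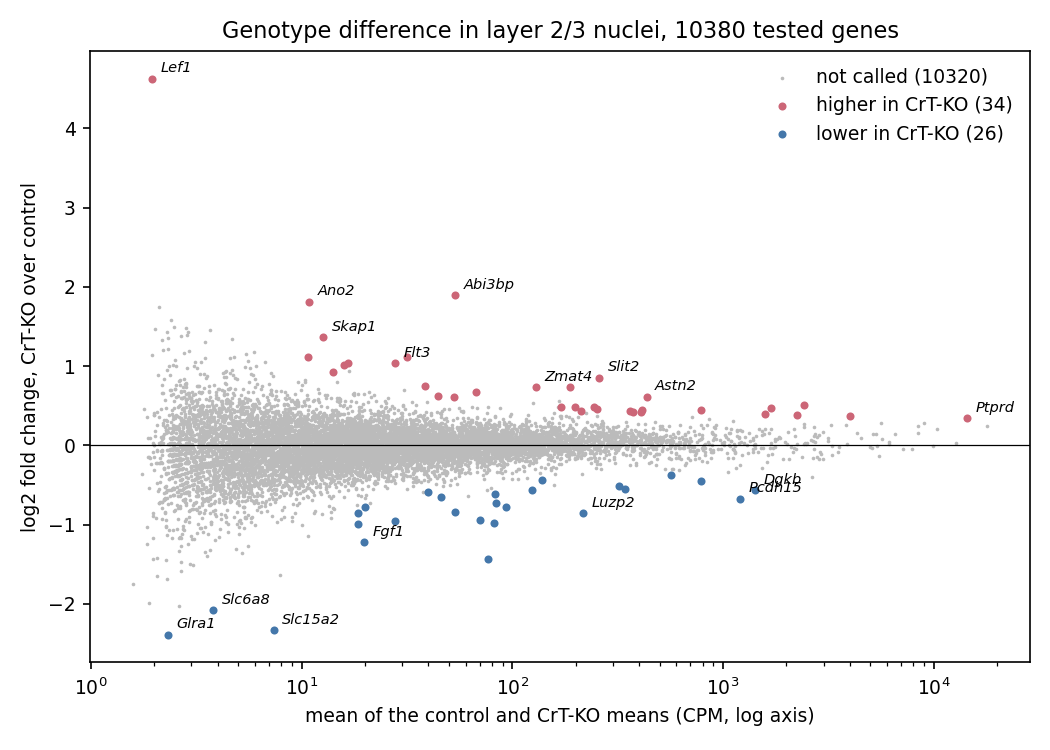
Mean level of each tested gene (x axis, CPM, log scale) against its log2 fold change of CrT-KO over control (y axis) in layer 2/3 nuclei. The 34 genes higher in CrT-KO are red, the 26 lower ones blue, and Abi3bp (1.89) and Slc6a8 (-2.08) are among the points far from 0.

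Of the 14 genes called under every alternative, Abi3bp had the largest rise. The gene (chromosome 16, 56477878 to 56690135) encodes an extracellular matrix protein named for binding the adaptor Abi3. It stood at 21.6 and 24.2 CPM in the controls and 102 and 65.8 CPM in CrT-KO. The CrT-KO libraries were both far above the controls and differed between themselves. The mean went from 22.9 ± 1.85 to 84.0 ± 25.8 CPM (SD, n = 2), 3.66-fold (log2 1.89, SE 0.18, edgeR adjusted p = 1.85e-05). The rise was spread over many nuclei: 49 and 61 control members and 204 and 111 CrT-KO members held a UMI. At an equal 5000 UMIs per nucleus, with 41 shallower members left out, 7.05% and 9.29% of control members and 30.9% and 20.2% of CrT-KO members held one. Without thinning the shares were 12.9%, 14.4%, 45.0% and 33.2%, against 1.23% to 2.52% in the shallower Csf1r cluster.

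Skap1, an adaptor protein of immune receptor signalling, was at 5.79 and 8.24 CPM in the controls and 18.1 and 18.5 CPM in CrT-KO. Flt3, a receptor tyrosine kinase known from blood progenitors, was at 16.6 and 19.4 CPM against 35.4 and 39.5 CPM. Both genes were without overlap, with log2 fold changes of 1.37 (SE 0.24, edgeR adjusted p = 0.0103) and 1.04 (SE 0.17, edgeR adjusted p = 0.00551). Zmat4, a zinc finger protein, stood at 98.9 and 94.9 CPM in the controls and 156 and 168 CPM in CrT-KO. Astn2, which controls the trafficking of the adhesion protein astrotactin 1 in migrating neurons, stood at 322 and 363 CPM against 536 and 514 CPM. These were rises of 0.74 (SE 0.10, edgeR adjusted p = 0.00148) and 0.61 (SE 0.09, edgeR adjusted p = 0.00228). An edgeR call for these 4 genes was made whichever library was left out.

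The calls of the other large rises were lost when a library was left out. Ano2, a calcium-activated chloride channel, was at 4.53 and 5.26 CPM in the controls and 20.5 and 13.2 CPM in CrT-KO (log2 1.81, SE 0.28, edgeR adjusted p = 0.00325), a call lost without CrT-KO replicate 1 (log2 1.42, edgeR adjusted p = 0.123). Vwa3a was at 23.6 and 16.7 CPM against 48.1 and 37.6 CPM (log2 1.11, SE 0.18, edgeR adjusted p = 0.00608), with 0.90 and an edgeR adjusted p of 0.134 without that library. Abca4, a retinoid transporter, rose by 1.12 (SE 0.26, edgeR adjusted p = 0.0778), Pard3b, a polarity protein, by 1.04 (SE 0.23, edgeR adjusted p = 0.0536), and Cfap299 by 1.01 (SE 0.24, edgeR adjusted p = 0.0804). Abca4 was not called without control replicate 2 (1.03, edgeR adjusted p = 0.141) or CrT-KO replicate 1 (0.80, 0.668). Pard3b was not called without control replicate 1 (0.73, edgeR adjusted p = 0.271), CrT-KO replicate 1 (0.97, 0.319) or CrT-KO replicate 2 (1.10, 0.177). Cfap299 was not called without CrT-KO replicate 2 (0.71, edgeR adjusted p = 0.571). Arr3, an arrestin, rose by 0.93 (SE 0.22, edgeR adjusted p = 0.0804), but not past the threshold without control replicate 2 (edgeR adjusted p = 0.245), CrT-KO replicate 1 (0.269) or CrT-KO replicate 2 (0.276), while its log2 fold change stayed between 0.85 and 1.01. Chst8, a sulfotransferase, rose by 0.74 (SE 0.14, edgeR adjusted p = 0.0242), with edgeR adjusted p of 0.109 and 0.184 without CrT-KO replicate 1 and 2 and a log2 fold change of 0.71 to 0.79 whichever library was left out.

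Lef1, a transcription factor of Wnt signalling, had the largest fitted difference, but it came from a handful of nuclei. It had 0 and 1 UMIs in the controls and 16 and 14 in CrT-KO. In CrT-KO these UMIs lay in 2 nuclei of each library, with 15 and 13 of them in 1 nucleus. The ratio of the summed levels was 29.7 (exact 95% interval 4.93 to 1211, which covers counting error only and treats the UMIs of a nucleus as independent). The edgeR adjusted p was 0.0116, and 0.134 and 0.290 without CrT-KO replicate 1 and 2. The level of Lef1 in each CrT-KO library was thus that of 2 nuclei.

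Slit2, the secreted ligand of the Robo receptors that repels growing axons, was at 200.5 and 170 CPM in the controls and 418 and 245 CPM in CrT-KO. CrT-KO replicate 1 was far above the other 3 libraries, and CrT-KO replicate 2 lay just above the controls. Slit2 rose by 0.85 on the log2 scale (SE 0.16, edgeR adjusted p = 0.0220), against 0.41 without CrT-KO replicate 1 (edgeR adjusted p = 0.422). By DESeq2 Slit2 was not called (0.85, SE 0.39). At 5000 UMIs per nucleus, 50.4% and 46.9% of control members and 71.7% and 59.8% of CrT-KO members held a UMI of it, and 5.44% to 11.5% of nuclei did in the shallower Csf1r cluster without thinning.

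**Figure D3:**
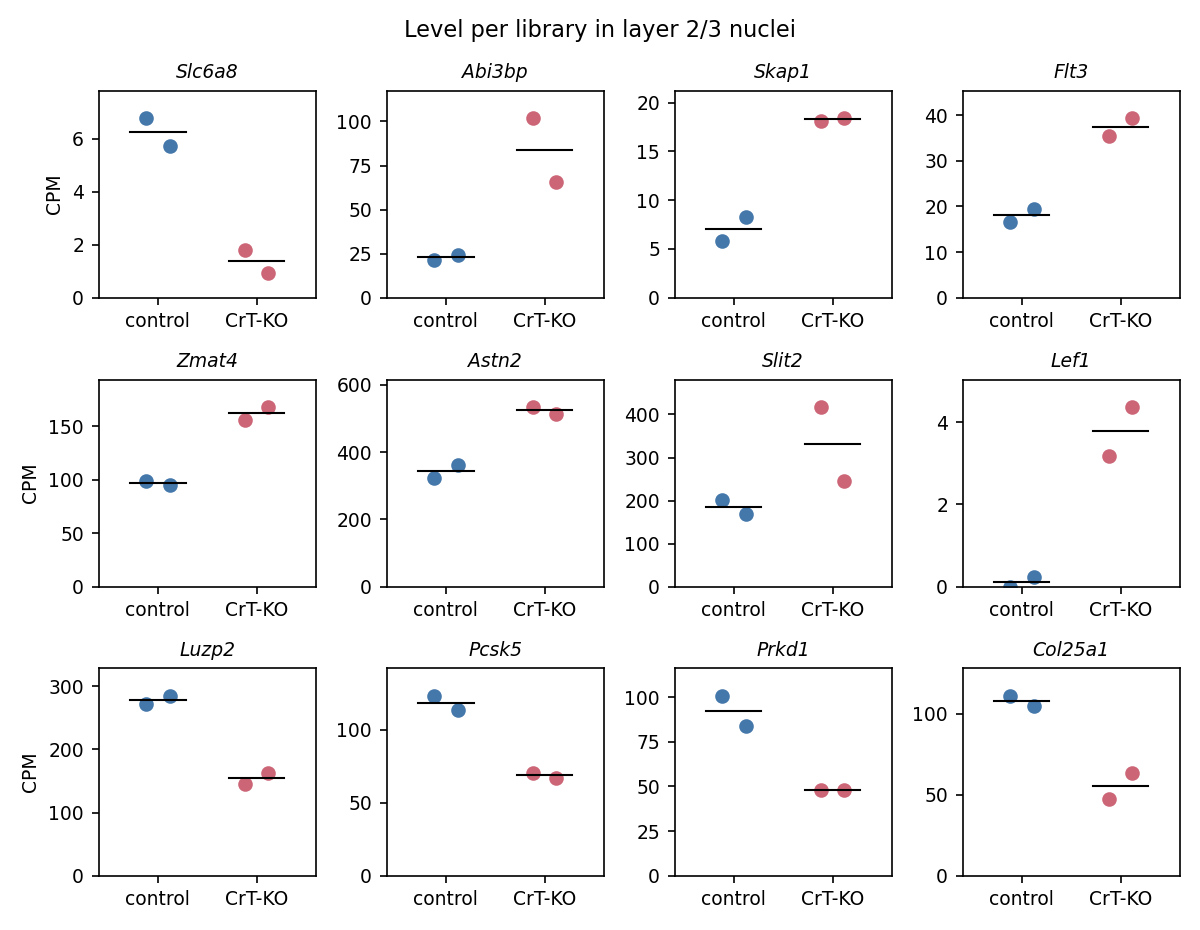
Level of 12 genes in layer 2/3 nuclei by library (y axis, CPM, from 0), with control libraries in blue, CrT-KO libraries in red and black lines for the mean of each genotype (n = 2). Luzp2, Pcsk5, Prkd1 and Col25a1 were lower in both CrT-KO libraries, and Slit2 was high mainly in 1 CrT-KO library (418 CPM).

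Among the falls, the leucine zipper protein gene Luzp2 (chromosome 7, 54835498 to 55268885) was at 271 and 285 CPM in the controls and 146 and 162 CPM in CrT-KO. Prkd1, the kinase PKD1 of Golgi vesicle budding, was at 101 and 83.7 CPM against 47.7 and 47.9 CPM. Col25a1, a transmembrane collagen found in amyloid plaques and needed by motor axons to reach muscle, was at 111 and 105 CPM against 47.5 and 63.6 CPM. The controls of all 3 lay above both CrT-KO libraries, and the log2 fold changes were -0.86 (SE 0.10, edgeR adjusted p = 0.000208), -0.95 (SE 0.13, edgeR adjusted p = 0.000895) and -0.98 (SE 0.13, edgeR adjusted p = 0.000895). Pcsk5, a proprotein convertase, fell from 118 ± 7.10 to 68.7 ± 2.41 CPM (SD, n = 2), by 0.78 on the log2 scale (SE 0.11, edgeR adjusted p = 0.00155). An edgeR call for these 4 genes was made whichever library was left out. Htr7, a serotonin receptor, went from 38.0 and 35.9 CPM to 20.7 and 16.9 CPM (-0.95, SE 0.17, edgeR adjusted p = 0.0105), and the edgeR adjusted p was 0.142 without CrT-KO replicate 2.

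Fgf1, a fibroblast growth factor, and the record of Arhgap26 with identifier ENSMUSG00000118193, which overlaps it on the other strand, fell together. Their counts are uncertain, because the sources used here do not say whether strand entered the counting. Fgf1 was at 24.7 and 30.2 CPM in the controls against 10.1 and 14.1 CPM (-1.22, SE 0.21, edgeR adjusted p = 0.00967, but 0.184 without CrT-KO replicate 1). The Arhgap26 record was at 116 and 106 CPM against 35.4 and 48.2 CPM (-1.44, SE 0.14, edgeR adjusted p = 1.85e-05). Arhgap26 also has a record under another identifier, which was not among the called genes. Both fell in the other excitatory nuclei too, by 1.32 and 1.25 (edgeR adjusted p = 2.76e-05 for each), and the difference between the populations was 0.11 (SE 0.19) and -0.17 (SE 0.11), with edgeR adjusted p of 0.992 and 0.920.

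Some falls came from few UMIs or lost their call when a library was left out. Slc15a2, a peptide transporter, had 65 and 34 UMIs in the controls against 5 and 14 (-2.33, SE 0.46, edgeR adjusted p = 0.0278), and -1.44 without CrT-KO replicate 1 (edgeR adjusted p = 0.409). The fall was -1.71 without control replicate 1 and -3.55 without CrT-KO replicate 2. Glra1, a glycine receptor subunit, had 13 and 20 UMIs against 4 and 2 (-2.39, SE 0.55, edgeR adjusted p = 0.0778), and was called in no fit that left out a library (edgeR adjusted p from 0.107 without control replicate 1 to 0.539 without CrT-KO replicate 2). In control replicate 1, 53.8% of its UMIs lay in 2 nuclei. Rbbp8, of DNA end resection, fell by 1.00 (SE 0.19, edgeR adjusted p = 0.0245), Mcmdc2, of meiotic recombination, by 0.86 (SE 0.19, edgeR adjusted p = 0.0646), and Mid1, a ubiquitin ligase on microtubules, by 0.84 (SE 0.15, edgeR adjusted p = 0.0103). Without CrT-KO replicate 1 and 2 in turn, the edgeR adjusted p was 0.184 and 0.116 for Rbbp8, 0.422 and 0.184 for Mcmdc2, which also had 0.101 without control replicate 2, and 0.102 and 0.116 for Mid1. The log2 fold changes in these leave-out fits ranged from -1.03 to -0.95 for Rbbp8, from -0.92 to -0.78 for Mcmdc2 and from -1.02 to -0.61 for Mid1.

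Called genes were long. The span from start to end in the annotation had a median of 475 kb over the 34 rises and 265 kb over the 26 falls, against 34.4 kb over all tested genes. Spans over 500 kb belonged to 16 of the rises, 4 of the falls and 220 (2.12%) of all tested genes. Long genes held more UMIs (a median of 12817 over 500 kb, against 327 over all), and the part of UMI number in these calls was not tested. Among genes with at least 1000 UMIs, 15 of 192 over 500 kb rose and 4 fell, while 4 of 497 between 200 and 500 kb rose and 9 fell. The median log2 fold change was 0.03 in both groups.

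Genes of synaptic adhesion, axon guidance, transmitter release and the cadherins held 6 of the calls, 5 higher and 1 lower in CrT-KO, where 0.578% of all tested genes were called. Of 30 synaptic organizers and scaffolds tested 1 rose and none fell, with a median log2 fold change of 0.05. It was Ptprd, a presynaptic receptor phosphatase, at 12375 and 13073 CPM in the controls against 15456 and 16728 CPM (0.34, SE 0.07, edgeR adjusted p = 0.0408, and 0.184 without CrT-KO replicate 2). Of 29 axon guidance genes 2 rose, Slit2 and Epha6, and 1 fell, Dcc, and the median was 0.01. Epha6, an ephrin receptor, rose by 0.47 (SE 0.09, edgeR adjusted p = 0.0251), with edgeR adjusted p of 0.126 without control replicate 1 and 0.153 without CrT-KO replicate 1. Dcc, the netrin receptor that attracts axons to the midline, stood at 640 and 644 CPM against 521 and 470 CPM and fell by 0.37 (SE 0.09, edgeR adjusted p = 0.0813), with edgeR adjusted p of 0.111 to 0.558 in the fits that left out a library.

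Of 20 genes of transmitter release 1 rose and none fell. Cadps2, which primes dense-core vesicles, was at 218 and 192 CPM against 278 and 292 CPM (0.48, SE 0.10, edgeR adjusted p = 0.0327), a call lost without control replicate 2 (edgeR adjusted p = 0.180), CrT-KO replicate 1 (0.118) or CrT-KO replicate 2 (0.309). Of 13 cadherins 1 rose, Cdh12, at 3440 and 3548 CPM against 4444 and 4550 CPM (0.36, SE 0.07, edgeR adjusted p = 0.0323, and 0.118 without CrT-KO replicate 2).

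The listed families of receptors and channels held no call, while Glra1, Htr7, Ano2 and Trpc6, which were called, lie outside these lists. None of 16 ionotropic and 7 metabotropic glutamate receptor genes, 14 GABA receptor genes, 7 sodium, 26 potassium and 15 calcium channel genes passed the threshold, with medians between -0.04 and 0.13. Kcnn2, a calcium-activated potassium channel, had a log2 fold change of -0.35 (edgeR adjusted p = 0.328), and Grik5, a kainate receptor subunit, 0.30 (edgeR adjusted p = 0.406).

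Energy metabolism was not called either. None of 19 genes of glycolysis and glucose or lactate transport, 10 adenylate and AMP-activated kinases, 9 ion pumps, 70 nuclear genes of oxidative phosphorylation and 9 mitochondrially encoded genes passed, with medians of -0.02, -0.03, -0.03, -0.09 and -0.02. Slc2a1, the glucose transporter GLUT1, had 31 and 39 UMIs against 33 and 8 (-0.77, SE 0.35, edgeR adjusted p = 0.598). Cox7b2, a subunit of cytochrome c oxidase, was at 8.30 and 11.7 CPM against 4.57 and 5.95 CPM (-0.96, SE 0.30, edgeR adjusted p = 0.294). Mitochondrially encoded genes made up a median of 0.0132% to 0.0170% of a member's UMIs by library, so few counts lie behind their median.

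Immediate-early and chaperone genes were not called. Of 18 immediate-early genes none passed, 9 had both CrT-KO libraries below both controls (18.9% of all tested genes did), and the median log2 fold change was -0.40, with 3 of the 18 above 0. Bdnf, a neurotrophin induced by activity, was at 45.3 and 44.8 CPM in the controls and 30.6 and 29.1 CPM in CrT-KO (-0.59, SE 0.14, edgeR adjusted p = 0.109). Egr3 was at 16.4 and 16.2 CPM against 10.5 and 6.58 CPM (-0.87, SE 0.24, edgeR adjusted p = 0.217), and Nr4a1 had 204 and 244 UMIs in the controls and 295 and 150 in CrT-KO (edgeR adjusted p = 0.995). Of 14 chaperones of the endoplasmic reticulum 7, and of 10 heat shock chaperones 6, had both CrT-KO libraries below the controls, with medians of -0.25 in each list and 2 genes of each above 0. Hspa8, the constitutive cytosolic chaperone, stood at 18.4 and 17.6 CPM against 11.1 and 9.39 CPM (-0.79, SE 0.22, edgeR adjusted p = 0.206), and Hspa5, the main chaperone of the endoplasmic reticulum, at 10.3 and 15.3 CPM against 9.15 and 8.45 CPM (-0.54, SE 0.25, edgeR adjusted p = 0.629).

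Of 16 clock genes none passed, 7 had both CrT-KO libraries above the controls (17.6% of all tested genes did), and the median was 0.21. Nr1d1, the repressor REV-ERB alpha, had 5 and 8 UMIs against 20 and 14 (1.40, SE 0.46, edgeR adjusted p = 0.348). Of 8 glucocorticoid-responsive genes none passed, with a median of -0.10. The study's methods place the killing of mice for RNA sequencing within the same hours of the light phase. They give no time for each animal, and the part of collection time in these values was not tested.

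**Figure D4:**
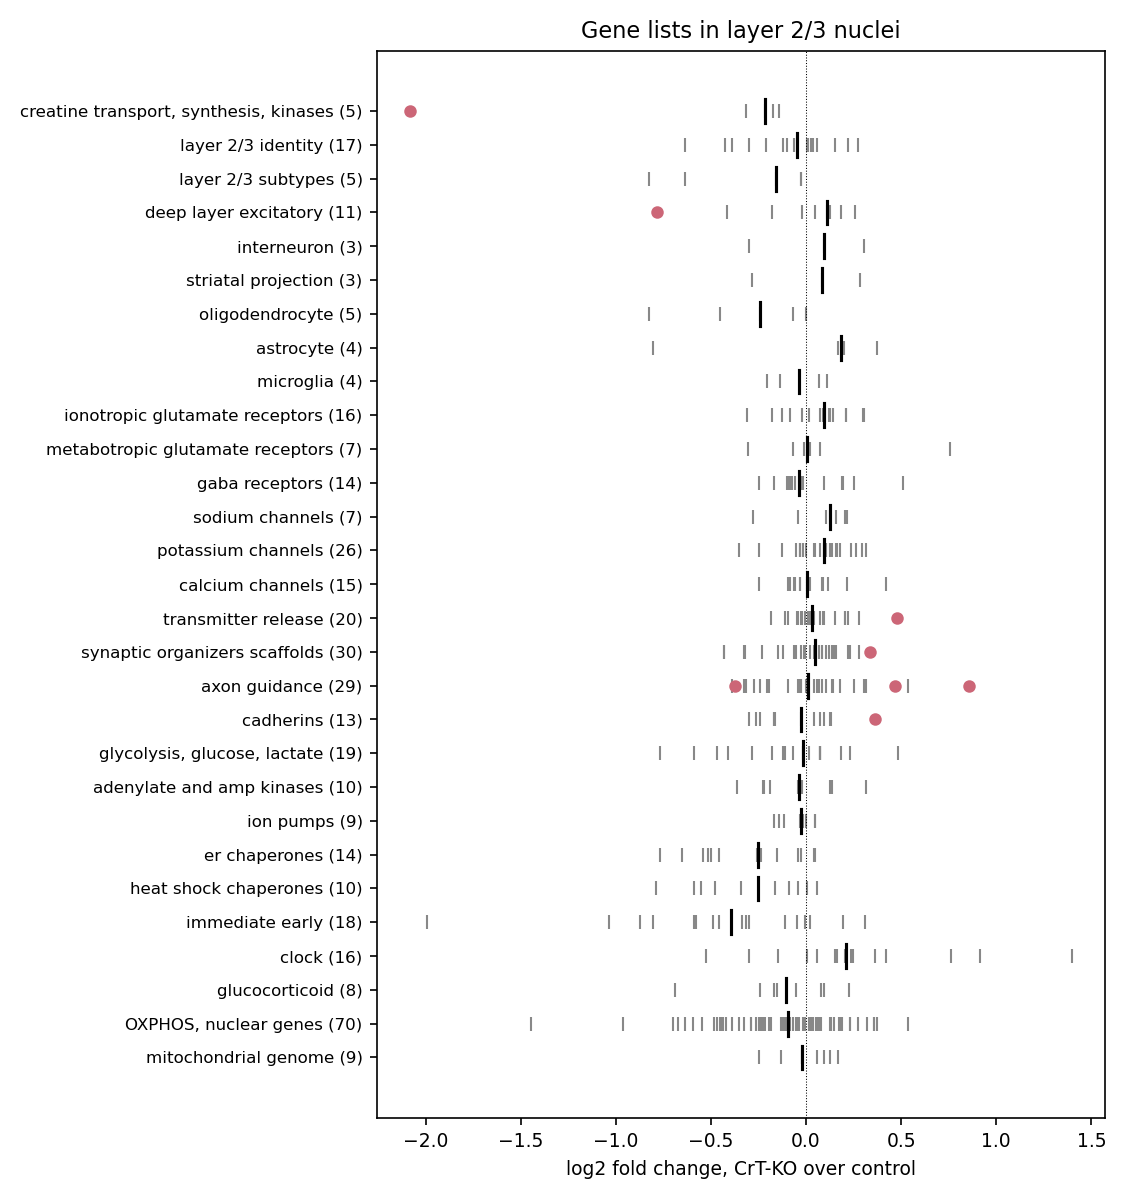
Log2 fold change of CrT-KO over control (x axis) of each tested gene in 29 gene lists (y axis, number tested in brackets), with called genes as red points, the others as grey ticks and the list median as a black bar. Called genes stand in 6 of the lists, and immediate-early genes had the lowest median of those drawn (-0.40).

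The listed identity genes of these neurons did not pass the threshold between genotypes. Of 17 layer 2/3 identity genes tested, the rule's own left out, none was called, with a median log2 fold change of -0.05. The lowest adjusted p was that of Nectin3 (-0.43, edgeR adjusted p = 0.281), and Cux1 had a log2 fold change of 0.04 (edgeR adjusted p = 0.965). None of 5 genes of layer 2/3 subtypes was called. Among the 15 genes first in order of their ratio to other excitatory nuclei Trpc6 fell, from 163 and 134 CPM in the controls to 98.7 and 102 CPM in CrT-KO (-0.57, SE 0.11, edgeR adjusted p = 0.0278). Its call was lost without control replicate 1 (edgeR adjusted p = 0.194), CrT-KO replicate 1 (0.234) or CrT-KO replicate 2 (0.201). Of 11 deep-layer genes 1 fell, Sulf1, an enzyme that trims heparan sulfate. Sulf1 was at 25.2 CPM in both controls against 14.3 and 15.0 CPM (-0.78, SE 0.19, edgeR adjusted p = 0.0876), while the edgeR adjusted p was 0.128 to 0.453 in the fits that left out a library.

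Of the markers of other cell types in the members, none passed the threshold between genotypes. Summed over its list, the level of oligodendrocyte genes was 139 and 118 CPM in the controls and 124 and 102 CPM in CrT-KO, that of astrocyte genes 233 and 240 CPM against 278 and 217 CPM (149 to 188 CPM in the other excitatory nuclei, mostly from Slc4a4 in both), and that of microglial genes 56.4 and 46.0 CPM against 45.1 and 47.5 CPM. Interneuron genes summed to 211 and 248 CPM against 209 and 211 CPM, carried by Adarb2, Erbb4 and Nxph1, while Pvalb, Vip, Dlx1 and Lhx6 had at most 3 UMIs in a library. Sst had 5 and 11 UMIs in the controls and 3 and 1 in CrT-KO, and Slc32a1 6 and 3 against 1 and 1, too few to be tested. Genes of oligodendrocyte precursors summed to 10.8 and 12.2 CPM against 7.71 and 6.13 CPM, without overlap and mostly from Vcan (log2 -0.82, edgeR adjusted p = 0.359). Vascular genes summed to 1.23 to 3.75 CPM, with Cldn5 at 0 in all libraries. Genes of striatal projection neurons summed to 1611 and 1845 CPM in the controls and 1345 and 1431 CPM in CrT-KO, without overlap, nearly all of it Pde10a, found in 98.5% to 99.7% of members (log2 -0.28, edgeR adjusted p = 0.315), while Drd1, Drd2 and Adora2a had at most 6 UMIs in a library. The part of these markers in the called genes was not tested.

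Where the genotype difference in layer 2/3 nuclei was set against that in the 8976 other excitatory nuclei, 31 of 12831 genes passed (interaction with the library as a block, edgeR adjusted p of 0.1, 0.242%). In 12 of them (0.0935%) the difference was higher in layer 2/3 nuclei and in 19 (0.148%) lower. At an unadjusted p under 0.05, 760 genes passed (5.92%). Of the 31 genes, 19 were also called within layer 2/3 nuclei. None of the 31 was called within the other excitatory nuclei, where 25 of 13247 genes (0.189%) were called by edgeR between genotypes. Of the 60 genes called in layer 2/3 nuclei, 10 were also called in the other excitatory nuclei. Abca4 rose there too (0.88, edgeR adjusted p = 0.0307), and Dgkb fell (-0.44, edgeR adjusted p = 0.0300). The other excitatory nuclei were all excitatory nuclei that failed the rule. Of these, 1186 failed only on Cux2 and 352 only on the sum of Ccbe1, Stard8 and Rasgrf2. They may thus include layer 2/3 nuclei, and the comparison is not one against other layers alone.

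Abi3bp was at 43.8 and 40.5 CPM in the other excitatory nuclei of the controls and 77.2 and 48.9 CPM in those of CrT-KO. In controls its level there was thus above that of layer 2/3 nuclei, and in CrT-KO below it. The log2 fold change there was 0.59 (SE 0.15, edgeR adjusted p = 0.250), and the difference between populations was 1.29 (SE 0.13, edgeR adjusted p = 7.65e-06). Astn2 was at 805 and 827 CPM against 836 and 828 CPM in the other excitatory nuclei, with a difference between populations of 0.60 (SE 0.06, edgeR adjusted p = 1.14e-05). Zmat4 was at 391 and 438 CPM against 453 and 448 CPM, with a difference of 0.62 (SE 0.09, edgeR adjusted p = 0.000549). For Slit2 the difference was 0.50 (SE 0.08, edgeR adjusted p = 0.00246), and its level in the other excitatory nuclei was also highest in CrT-KO replicate 1 (206, 195, 305 and 203 CPM).

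Luzp2 stood at 166 and 155 CPM in the other excitatory nuclei of the controls and 158 and 126 CPM in those of CrT-KO, and the fall in layer 2/3 nuclei was larger by 0.69 (SE 0.10, edgeR adjusted p = 0.00132). Pcsk5 stood at 176 and 155 CPM against 151 and 156 CPM (difference -0.66, SE 0.09, edgeR adjusted p = 0.000620). Prkd1 stood at 76.0 and 79.3 CPM against 62.1 and 63.3 CPM (difference -0.62, SE 0.12, edgeR adjusted p = 0.0174), and the difference did not pass without control replicate 1 (-0.46, edgeR adjusted p = 0.243). For Skap1, Flt3 and Col25a1 the difference between populations did not pass (0.42, 0.71 and -0.44, edgeR adjusted p = 0.889, 0.115 and 0.335). Skap1 was itself called in the other excitatory nuclei, with a rise of 0.93 (SE 0.13, edgeR adjusted p = 0.0112).

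Rorb nuclei were excitatory nuclei with at least 3 UMIs of Rorb, at most 2 of Foxp2 and none of Deptor. Foxp2 nuclei had at least 3 of Foxp2, at most 2 of Rorb and none of Deptor. Deptor nuclei had at least 1 of Deptor, at most 2 of Rorb and at most 2 of Foxp2. Against these, taken 1 population at a time, 14, 13 and 22 genes passed the interaction (0.130%, 0.125% and 0.207% of those tested). Zmat4 passed against all 3, with differences of 0.62, 0.54 and 0.66 (edgeR adjusted p = 0.00835, 0.0774 and 0.0126). Abi3bp also rose in Rorb nuclei (1.39, edgeR adjusted p = 0.00122) and Foxp2 nuclei (1.01, 0.0874) and had a log2 fold change of 0.45 in Deptor nuclei (0.690). Of all genes tested between genotypes, 0.117% were called in Rorb nuclei, 0.0968% in Foxp2 nuclei and 0.223% in Deptor nuclei. Its difference from layer 2/3 nuclei passed only against Deptor nuclei (1.43, edgeR adjusted p = 0.00170, against 0.764 for Rorb and 0.153 for Foxp2). Astn2 passed against Foxp2 and Deptor nuclei and not against Rorb nuclei (0.31, edgeR adjusted p = 0.161). Luzp2 passed against none of the 3 (edgeR adjusted p = 0.842, 0.131 and 0.570). Slit2 passed against Foxp2 and Deptor nuclei and not against Rorb nuclei (0.34, edgeR adjusted p = 0.291). Pcsk5 passed against Foxp2 nuclei only (edgeR adjusted p = 0.0224, against 0.831 for Rorb and 0.212 for Deptor). Hs6st3 passed against Rorb nuclei only (0.37, edgeR adjusted p = 0.0133). In Deptor nuclei Hs6st3 also rose (0.50, edgeR adjusted p = 0.00706), with a difference of 0.006 (edgeR adjusted p = 0.998). These populations hold 1610, 1195 and 1303 nuclei, so their sums are shallower than that of all other excitatory nuclei.

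**Figure D5:**
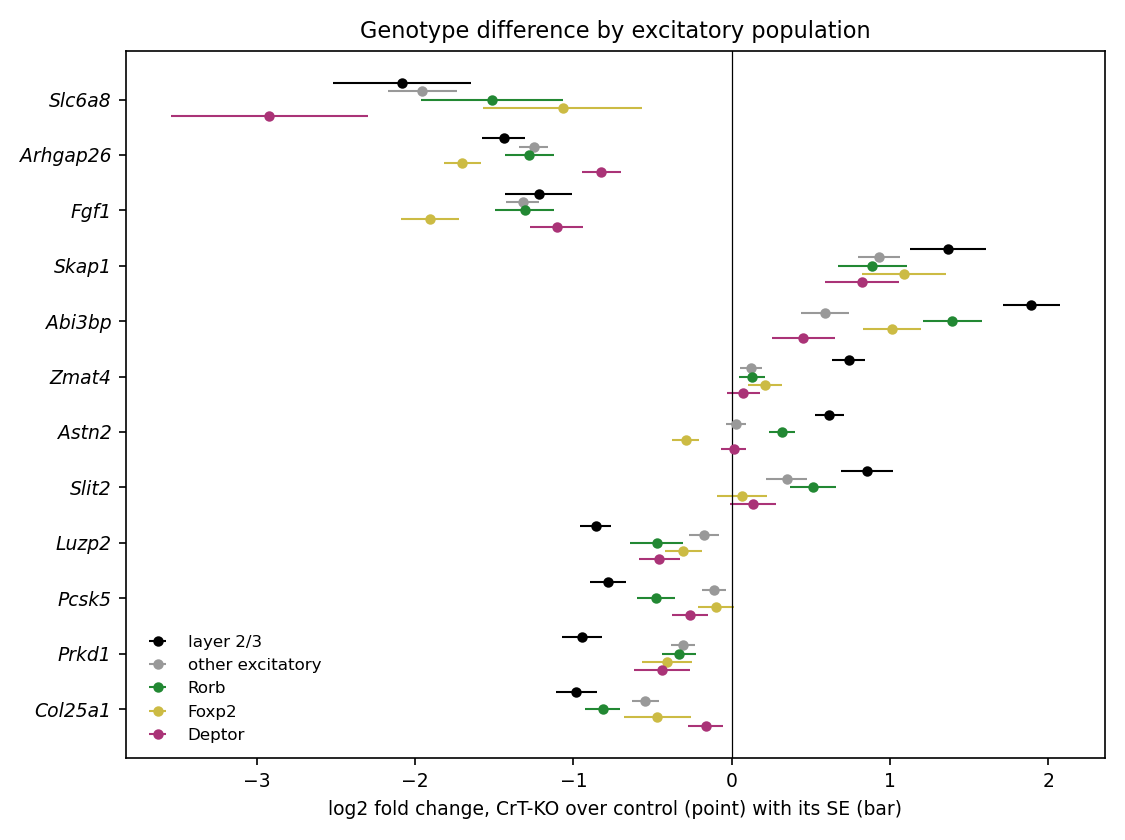
Log2 fold change of CrT-KO over control (x axis, points, with SE as bars) of 12 genes in layer 2/3 nuclei (black), the other excitatory nuclei (grey) and Rorb, Foxp2 and Deptor nuclei (green, yellow, purple). Slc6a8, the Arhgap26 record and Fgf1 lie left of 0 in every population, and Zmat4 lies apart from the rest in layer 2/3 nuclei (0.74).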

How the data were processed

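The 4 libraries of cortical nuclei (control and CrT-KO, 2 animals each) were made with the 10x 3' kit version 2. The deposited matrices hold raw UMI counts per gene and nucleus, which the authors made with Cell Ranger 3.1.0 on a GRCm38 (mm10) reference in which the whole gene body counts as exon, so intronic reads are counted. The matrices hold 35694 barcodes, as many as the study's methods state. Whether strand entered the counting is not given in the sources used here. Gene positions came from GENCODE vM21, which matched 21893 of 21933 genes.

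Members were chosen by the stated rule on raw UMIs and summed per library. Doublets were marked per library with Scrublet in scanpy 1.11.5 (Python 3.11.15). Clusters used Leiden at resolution 1.0 on 3000 variable genes, 30 components and 20 neighbours. Genotypes were compared with the quasi-likelihood test of edgeR 4.0.16 (R 4.3.3) on these sums with TMM factors, its low-count filter (minimum count 10, minimum total 15) and Benjamini-Hochberg adjustment at 0.1. The 10 genes of the rule were fitted but not called, and the interaction held library as a block. DESeq2 1.42.0, RLE factors, no filter, a replicate block, doublets kept, Cux2 of at least 3, 5000 UMIs per nucleus, a threshold of 0.05 and each library left out were the alternatives. Taking cluster 16, or its members alone, was added after seeing the data. Scripts were tested on simulated data.

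The members, gene lists and tests were chosen with earlier results of these data known. Genes were named by rule: Slc6a8, the listed layer 2/3 genes, up to 12 called genes each way without overlap, called or lowest-p members of each list with a few central ones, up to 5 interaction genes each way, and the 15 most enriched genes. Sums of 3263056 to 5060611 UMIs set the precision.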

Additional observations from a re-analysis of the deposited data

Results flagged for a closer look

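Among the genes named in the text, 18 had a genotype difference in layer 2/3 nuclei that departed from that in the other excitatory nuclei of the same animals (interaction with the library as a block, edgeR adjusted p under 0.1). Values are the log2 fold change of CrT-KO over control in layer 2/3 nuclei minus that in the other excitatory nuclei.

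The difference was positive for Lef1 (5.03), which rested on 2 nuclei in each CrT-KO library, and for Ano2 (1.59), Abi3bp (1.29), Zmat4 (0.62), Astn2 (0.60), Fgf13 (0.52), Slit2 (0.50), Cadps2 (0.37) and Hs6st3 (0.26). It was negative for Glra1 (-2.95), Blnk (-1.67), Lpar1 (-1.24), Luzp2 (-0.69), Pcsk5 (-0.66), Prkd1 (-0.62), Pcdh15 (-0.45), Erbb4 (-0.40) and Dcc (-0.29). Of these genes, only Zmat4 passed against each of the Rorb, Foxp2 and Deptor populations. Astn2 and Slit2 passed against Foxp2 and Deptor nuclei, and Erbb4 against Rorb and Deptor nuclei. Lef1 and Hs6st3 passed against Rorb nuclei only, and Fgf13 and Pcsk5 against Foxp2 nuclei only. Abi3bp, Cadps2, Glra1, Pcdh15 and Dcc passed against Deptor nuclei only, and Luzp2, Prkd1, Ano2, Blnk and Lpar1 against none. Blnk, an adaptor of B-cell receptor signalling, stood at 8.80 and 14.4 CPM in layer 2/3 nuclei of the controls and 1.59 and 6.89 CPM in CrT-KO, and at 25.9 to 27.5 CPM in the other excitatory nuclei of all 4 libraries. Lpar1, a receptor for lysophosphatidic acid, stood at 14.1 and 14.9 CPM against 4.38 and 9.71 CPM. Neither was called within layer 2/3 nuclei (edgeR adjusted p = 0.134 and 0.145). Erbb4, the neuregulin receptor, stood at 96.6 and 141 CPM against 98.7 and 94.9 CPM and was not called there either (edgeR adjusted p = 0.617).

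The edgeR call of the difference was lost for 8 of these genes when a library was left out. For Ano2 the adjusted p was 0.126 without control replicate 1 and 0.190 without CrT-KO replicate 1, and for Lpar1 it was 0.238 and 0.637 without the same libraries. Without control replicate 2 and CrT-KO replicate 1 in turn it was 0.324 and 0.632 for Glra1, 0.224 and 0.711 for Blnk, and 0.324 and 0.543 for Erbb4, whose call was also lost with doublets kept (0.210). Prkd1 (0.243), Hs6st3 (0.253) and Dcc (0.198) lost the call without control replicate 1. The calls for Lef1, Abi3bp, Zmat4, Astn2, Fgf13, Slit2, Cadps2, Luzp2, Pcsk5 and Pcdh15 were made whichever library was left out.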

How the results depend on the processing

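All 60 called genes kept the direction of their fold change under every alternative that gave one. The count of calls moved from 60 to 137 without the low-count filter, which tests 16244 genes, and to 140 when the whole of cluster 16 replaced the members. It ranged from 30 to 106 when libraries were left out, with 21 of the 60 genes called without CrT-KO replicate 1, 26 without CrT-KO replicate 2 and 45 without each control in turn. It was 41 by DESeq2, which gave an adjusted p for 4944 genes, and 41 with nuclei thinned to 5000 UMIs. The cause of these shifts was not tested. Of the 60 genes, 34 were called in every alternative that gave them a value, apart from those that left out a library or used cluster 16.

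No source says that replicate numbers pair the animals. With 2 pairs, deviations from the group means correlated at 0.116 over genes. With the replicate block 89 genes were called, all 60 among them.

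The number of genes that differed from the other excitatory nuclei moved from 31 to 19 at a threshold of 0.05 and to 71 without the filter, and ranged from 26 to 68 when libraries were left out. The CrT-KO minus control difference in the share of excitatory nuclei was -1.36 percentage points and ranged from -2.96 to 0.235 when libraries were left out, reversing without CrT-KO replicate 2. The difference in median UMIs per nucleus was 181.25 and ranged from -505.5, without CrT-KO replicate 1, to 868. Depth limits the genes of few UMIs most: Slc6a8, with 64 UMIs over the 4 libraries, had an SE of 0.43 on the log2 scale, and Astn2, with 7204, one of 0.09.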
